A study of Caenorhabditis elegans with 2 samples.

Results

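The set described here is the 621 peaks of tagged TBX-2 that lie on the X chromosome of Caenorhabditis elegans, out of 3053 peaks in the optimal set of the whole experiment. They were chosen by chromosome alone, as the optimal peaks on chromosome X of the ce11 genome build. The other 2413 nuclear peaks lie on autosomes I to V and serve as the background, and 19 mitochondrial peaks were left out. Chromatin came from embryos of hermaphrodites of strain OP159, which carries the unc-119 allele ed3 on chromosome III and the integrated transgene wgIs159. The transgene gives TBX-2 joined at its C-terminus to green fluorescent protein (GFP) and a FLAG tag, and the precipitation used an antibody against GFP. Embryos labelled late embryonic were collected 3.5 h after synchronization by bleaching, in 2 biological replicates, and no second condition exists in the study. The whole animal was used, so the signal is a mixture of all embryonic cells. A peak list from a strain without the fusion protein was not analysed here, and chromatin that the antibody or the procedure retains without TBX-2 cannot be told apart from TBX-2 binding.

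TBX-2 is a transcription factor of the T-box family, proteins that bind DNA through the domain first known from Brachyury, and in the worm it is required for the anterior muscles of the pharynx. The X chromosome of the worm has a biology of its own. Hermaphrodites carry a pair of X chromosomes and males a single one, and in hermaphrodites a condensin-like dosage compensation complex binds X and lowers its transcription. The complex is loaded at recruitment sites on X that contain a short sequence motif, here sought by its core GCGCAGGG. The X chromosome is also known to be rich in transfer RNA (tRNA) genes.

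Sequences with the recruitment core are shown first, since their share had the highest odds ratio of X to autosomes among the 21 shares compared below. Of the 621 X summits, 12 had GCGCAGGG, on either strand, in the window that reaches 50 bases to each side of the summit. The 61 bases around it are printed for 8 of these 12, read 5′ to 3′ on the strand of the core from the RefSeq sequence of WBcel235 (ce11), with the core in capitals. They are named by the gene with the nearest 5′ end and are the 6 with the highest signal, followed by 2 of the weaker ones for contrast. In the same order they cover chrX:11094200-11094260, chrX:6296522-6296582, chrX:14525874-14525934, chrX:806648-806708, chrX:4209240-4209300, chrX:8036409-8036469, chrX:4395589-4395649 and chrX:3159700-3159760.
W02H3.3: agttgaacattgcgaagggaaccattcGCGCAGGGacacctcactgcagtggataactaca
cest-16: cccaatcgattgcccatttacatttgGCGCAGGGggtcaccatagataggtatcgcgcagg
nspc-17: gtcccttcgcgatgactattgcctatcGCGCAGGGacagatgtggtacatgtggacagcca
gtr-1: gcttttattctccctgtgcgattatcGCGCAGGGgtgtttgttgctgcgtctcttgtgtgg
F20B6.9: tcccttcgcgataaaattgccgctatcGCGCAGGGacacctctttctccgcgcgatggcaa
xol-1: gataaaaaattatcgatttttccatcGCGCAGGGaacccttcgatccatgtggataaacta
dpy-23: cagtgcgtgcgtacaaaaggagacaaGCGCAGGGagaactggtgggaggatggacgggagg
gcc-1: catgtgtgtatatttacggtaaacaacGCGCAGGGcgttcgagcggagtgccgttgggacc
A T-box site, GGTGTGA on either strand, lay in the same window of 8 X summits. For 3 of these the 61 bases are printed in the same way, at chrX:14102135-14102195, chrX:5764058-5764118 and chrX:9505113-9505173, with each copy of the site in capitals. They are the 2 with the highest signal and the weakest one.
F16B12.6: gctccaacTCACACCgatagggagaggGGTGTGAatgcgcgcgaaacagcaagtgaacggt
tag-294: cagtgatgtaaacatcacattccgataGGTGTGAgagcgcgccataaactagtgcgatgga
gap-2: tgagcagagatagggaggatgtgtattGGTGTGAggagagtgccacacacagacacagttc
The 2 strongest X peaks of all had neither sequence. The 61 bases centred on their summits, on the forward strand at chrX:11605947-11606007 and chrX:13665562-13665622, are given for comparison. The second lies inside an annotated tRNA gene.
ftt-2: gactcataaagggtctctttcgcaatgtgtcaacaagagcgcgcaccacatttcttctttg
C04A11.5: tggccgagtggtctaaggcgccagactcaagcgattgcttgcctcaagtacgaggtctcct

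TBX-2 peaks on X ran from a signal of 81.7 to 606, with a median of 128, against a median of 125 and a maximum of 2536 on the autosomes. The signal is the authors' value per peak, assigned by their peak caller and used here to rank and describe peaks within a list. Most X peaks were among the strong ones of each replicate: 551 of the 621 peaks overlapped one of the 3053 strongest peaks of replicate 1, 538 one of the 3053 strongest of replicate 2, and 473 both. The optimal set was drawn from the pooled replicates, so this overlap describes the set and does not test it. The share in both top lists was 76.2% on X (exact 95% interval 72.6 to 79.5) and 76.2% on the autosomes (range 73.6% to 77.8%), and the adjusted p of Fisher's exact test was 1. The interval, like all intervals below, covers counting error over peaks only, since depth per library is unknown. Of all X peaks, 51.05% lay above the median signal of the nuclear peaks, against 49.7% of autosomal peaks (range 46.8% to 54.3%; adjusted p = 0.825, two-sided Fisher's exact test). Of the 20 strongest peaks of the optimal set, 0 were on X. Chromosomes I to V had 3, 1, 5, 2 and 1 of them, and the rest were mitochondrial, so few nuclear peaks stand behind this count. The 100 strongest held 86 nuclear peaks, of which 9 were on X (10.5%, 4.90 to 18.9). The 500 strongest held 483, of which 98 were on X (20.3%, 16.8 to 24.2).

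The share of peaks on X depended on rank. The relaxed lists, which hold weak peaks and background besides the optimal ones, were divided by signal into tiers of 3053 peaks. On X lay 20.5% of the nuclear peaks of the first pooled tier, which is the optimal set, then 19.7% of the second, 18.8% of the third and 17.4% of the fourth. The fifth to ninth tiers held between 16.1% and 17.4% on X, close to the 17.7% of nuclear bases that X takes. Each replicate alone gave the same order at the top, with 20.9%, 19.4% and 17.7% in the first 3 tiers of replicate 1 and 20.7%, 19.8% and 17.7% in those of replicate 2. The first-tier share was 20.8% ± 0.127 (SD, n = 2) over the replicates. In peaks per Mb, X had 35.05, inside the autosomal range of 18.1 (V) to 39.2 (I). Per 100 protein-coding genes it had 22.7 peaks, above the autosomal range of 7.57 (V) to 20.5 (I). X has 154 such genes per Mb, against 188 to 239 on the autosomes.

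**Figure D1:**
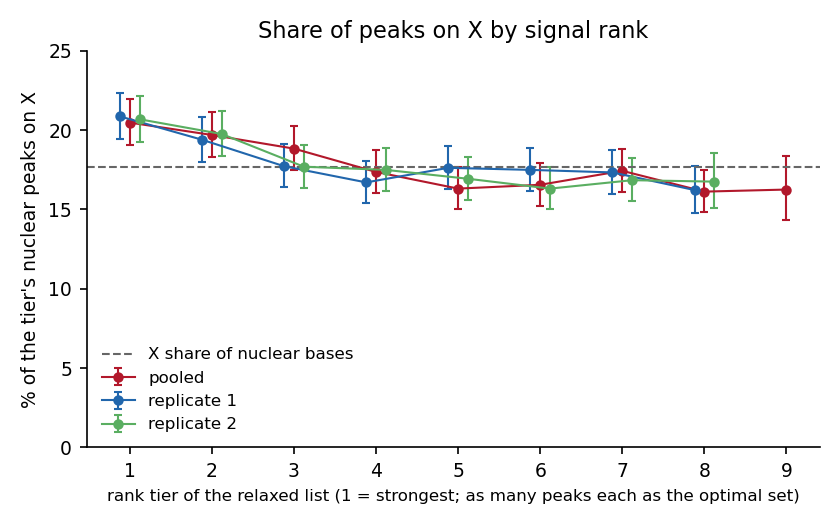
The percentage of nuclear peaks that lie on X (vertical axis) is plotted for successive tiers of 3053 peaks ranked by signal (horizontal axis) in the pooled list and in each replicate, with exact 95% intervals; the dashed line is the X share of nuclear bases. All 3 lists start above 20% and lie between 16.1% and 17.6% from the fifth tier on.

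In sections of equal length, the left one of X held 204 peaks, the middle one 203 and the right one 214. The middle section held 32.7% of X summits (29.0 to 36.5) and 40.9% of autosomal summits, and each autosome alone had a higher share, from 36.6% to 45.5%. The difference passed the test (adjusted p = 6.61e-04, Fisher's exact test, Benjamini-Hochberg over 21 shares). It was seen in each replicate, with 33.0% on X against 40.6% on the autosomes in replicate 1 and 30.9% against 41.4% in replicate 2. Of X protein-coding genes 35.8% lay in the middle section, against 38.1% of autosomal genes (range 36.0% to 40.6%). Whole 1-Mb bins of X held 25 to 46 peaks, and the densest was 13 to 14 Mb, with 46 peaks in the optimal set, 47 in the top list of replicate 1 and 48 in that of replicate 2. Per gene the densest whole bins were 2 to 3 Mb, with 43 peaks and 135 genes, and 16 to 17 Mb, with 34 peaks and 107 genes. They stood close together, and in the top lists their counts were 42 and 35 in replicate 1 and 44 and 38 in replicate 2, which puts the second ahead per gene. With 1 X against 5 autosomes an exact permutation over chromosomes cannot give a p below 0.167. The p-values here treat peaks as the units, and peaks are not independent replicates. Each of the 21 main comparisons is therefore given with the range of the 5 autosomes or the place of X in it.

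**Figure D2:**
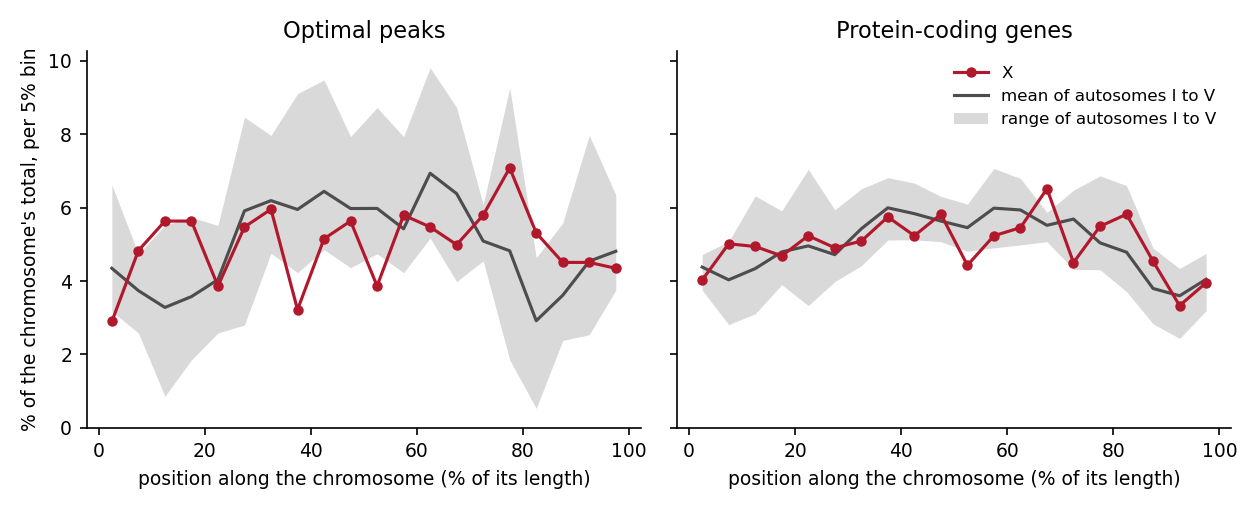
The percentage of a chromosome's optimal peaks (left) and of its protein-coding genes (right) is plotted per 5% of chromosome length for X, with the mean and range of autosomes I to V. X peaks show no central rise, with 32.7% of them in the middle section against 40.9% on the autosomes.

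X summits were less often within 1 kb of a protein-coding 5′ end than autosomal ones. The median distance to the nearest annotated protein-coding 5′ end was 748 bp on X and 514 bp on the autosomes. Within 1 kb of such an end lay 57.0% of X summits (354 of 621) and 62.5% of autosomal summits (range 59.6% to 66.1%), with an adjusted p of 0.0346 in Fisher's exact test. The share was 55.9% on X against 61.3% in replicate 1 and 55.3% against 62.5% in replicate 2. The call was lost at 2 kb (74.4% on X against 78.0%, adjusted exact p = 0.0901) and with 1 5′ end per gene (50.6% against 55.5%, adjusted exact p = 0.0505), and with the 5′ ends of all genes the direction turned (80.4% against 78.6%, adjusted exact p = 0.523). On X, however, only 34.9% of all bases lie that near to a 5′ end, against 42.6% on the autosomes. Relative to those bases X summits were concentrated 1.64-fold, above the autosomal range of 1.38-fold to 1.58-fold, so the direction depends on whether summits or bases are counted. Over 2 kb from any protein-coding 5′ end lay 25.6% of X summits and 22.0% of autosomal ones (range 17.7% to 25.61%; adjusted exact p = 0.0901). That difference passed the test in the top list of replicate 2 (27.9% on X against 21.8%, adjusted exact p = 0.00371) and not in that of replicate 1 (26.1% against 22.0%, adjusted exact p = 0.0557). Of X summits 489 (78.7%) lay upstream of the nearest 5′ end, a share that was not compared with the autosomes. More than 5 kb from any such end were 38 (6.12%), against 5.39% of autosomal summits (adjusted exact p = 0.737), with X inside the autosomal range.

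By annotated context, 51.7% of X summits were in promoters (1 kb upstream of a 5′ end), against 56.6% of autosomal ones (range 53.1% to 61.6%; adjusted p = 0.0505, Fisher's exact test). In the top list of replicate 1 it was 51.03% on X against 54.8% (adjusted exact p = 0.139), and in that of replicate 2 49.3% against 56.6% (adjusted exact p = 0.00322). Promoters take 18.5% of X bases and 23.3% of autosomal bases, and relative to bases the direction turned, with summits concentrated 2.80-fold on X, above the autosomal range of 2.39-fold to 2.54-fold. Introns held 13.85% on X, against 17.8% (adjusted exact p = 0.0408), with X inside the autosomal range of 13.76% to 22.0%. The call was lost when summits near tbx-2 were left out (adjusted exact p = 0.0594). Coding sequence held 0.966% on X and 1.08% on the autosomes, 5′ untranslated regions 1.13% on X and 1.24% on the autosomes, and 3′ untranslated regions 0.161% on X and 0.249% on the autosomes, with adjusted p-values of 1 and X inside the autosomal range in each. Non-coding genes outside protein-coding ones and outside promoters held 8.53% of X summits (6.46 to 11.01), above the autosomal 3.48% (range 2.09% to 5.29%, adjusted exact p = 3.26e-06). A summit in a non-coding gene that also lay in a promoter was counted as promoter. The value is therefore not the share in all non-coding genes, and other orders of the classes were not tried. Replicate 1 alone gave 9.16% on X against 3.75%, and replicate 2 gave 7.34% against 3.62%. The 53 X summits of this class were in genes annotated as ncRNA (28), as tRNA (14), as both (9), as a pseudogene (1) or as a lincRNA with a miRNA (1). The 84 autosomal summits of this class were not split in this way. The share of the difference that lies in tRNA genes was therefore not tested. The same class takes 2.99% of X bases and 3.54% of autosomal bases. Relative to bases X summits were concentrated 2.85-fold in it, above the autosomal range of 0.930-fold to 1.31-fold. Within 250 bp of a tRNA gene lie 0.803% of X bases and 0.222% of autosomal bases. Summits in none of these classes made up 23.7% on X and 19.5% on the autosomes (range 16.7% to 21.9%; adjusted exact p = 0.0484). Replicate 1 gave 24.96% on X against 19.5%, and replicate 2 gave 26.95% against 19.4%. The call was lost when summits near tbx-2 were left out (adjusted exact p = 0.0523), and relative to bases the direction turned, with 0.808-fold on X, below the autosomal range of 0.864-fold to 1.25-fold.

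Divergent promoters, where genes on opposite strands start back to back, showed the largest difference in percentage points among the 21 shares. Both 5′ ends lay within 1 kb of the summit for 26 of 621 X summits (4.19%, 2.75 to 6.08), against 477 of 2413 autosomal summits (19.8%). All 5 autosomes were between 18.9% and 20.5%, and the adjusted p was 4.65e-24 (Fisher's exact test). Replicate 1 gave 3.79% on X against 19.1%, and replicate 2 gave 3.99% against 19.9%. Such promoters are scarcer on X to begin with: 0.983% of X bases meet the same definition, against 3.77% of autosomal bases, and there were 6.52 divergent pairs per 100 genes on X against 13.8. Relative to those bases, summits were concentrated 4.26-fold on X, below the autosomal range of 4.82-fold to 5.94-fold. Of the 26, 20 were in the top list of both replicates. The strongest lay at C28G1.2, at chrX:8835939-8836218, with a signal of 319 in the pooled list, 189 in replicate 1 and 128 in replicate 2. Its summit was within 250 bp of a tRNA gene. The next was the peak between lev-9, which encodes a secreted protein that clusters acetylcholine receptors at muscle, and mom-1, the worm Porcupine homologue needed to produce Wnt ligands. That peak, at chrX:6292208-6292440, had a signal of 276, with 166 in replicate 1 and 114 in replicate 2, and also lay within 250 bp of a tRNA gene.

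**Figure D3:**
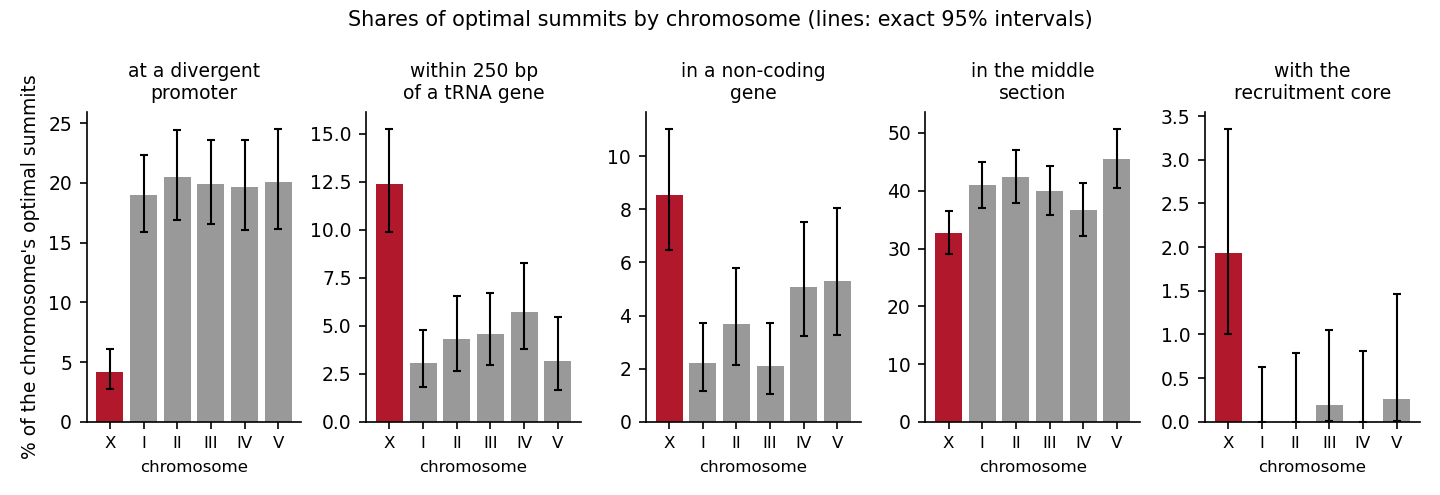
Each panel gives the percentage of a chromosome's optimal summits with one property, for X (red) and autosomes I to V (grey), with exact 95% intervals. X is below every autosome at divergent promoters (4.19%) and in the middle section (32.7%). It is above every autosome near tRNA genes (12.4%), in non-coding genes outside promoters and protein-coding genes (8.53%) and for the recruitment core (1.93%).

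Transfer RNA genes, which RNA polymerase III transcribes, lay within 250 bp of 77 X summits, 12.4% of the set (9.91 to 15.3). On the autosomes 4.14% of summits did (range 3.05% to 5.74%; adjusted p = 8.41e-12, Fisher's exact test). Replicate 1 gave 12.3% on X against 4.25%, and replicate 2 gave 12.1% against 3.74%. X carries 276 of the 612 nuclear tRNA genes (45.1%), and counted per gene the difference was not seen. A summit lay near 80 of the 276 X genes (29.0%, 23.7 to 34.7), against 105 of the 336 autosomal genes (31.3%, 26.3 to 36.5). Relative to the bases so placed, X summits were concentrated 15.4-fold, inside the autosomal range of 12.6-fold to 25.2-fold. The 77 X peaks had signals from 82.6 to 461 with a median of 191, against a median of 129 for the 100 autosomal peaks near tRNA genes, a difference that was not tested. They made up 25 of the 100 strongest X peaks, and 69 of them were in both top lists. The strongest was the second strongest X peak, inside a tRNA gene 1003 bp downstream of the 5′ end of C04A11.5 at chrX:13665379-13665740. It had a signal of 461 in the pooled list, 284 in replicate 1 and 180 in replicate 2. A second lay in an intron of sulp-3, which encodes a member of the sulfate permease family, at chrX:8404316-8404643, with 395, 229 and 164 in the same order. Further ones were beside ets-5, an ETS-domain transcription factor, with 357, 200.8 and 155, and in an intron of him-4, the gene of the extracellular matrix protein hemicentin, with 335, 213 and 124. In all 4 replicate 1 gave the higher value, and its signals ran higher over X as a whole, with a median of 76.2 against 56.3 in replicate 2. Small nucleolar RNA genes had a summit in 3 of 33 cases on X (9.09%) and in 76 of 313 on the autosomes (24.3%), and microRNA genes in 4 of 74 on X (5.41%) and 16 of 187 (8.56%), neither difference being tested.

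The recruitment core marked a small group of X peaks. It lay in the summit window of 12 of 621 X summits (1.93%, 1.00 to 3.35) and of 2 of 2413 autosomal summits (0.0829%), with an adjusted p of 2.10e-06 (Fisher's exact test). The autosomes ranged from 0% to 0.265%. The top lists gave 2.05% on X against 0.0833% in replicate 1, and 2.07% on X in replicate 2, where no autosomal window had the core. When X was tiled into windows of the same size the core was in 0.0388% of them, so the summits held it 49.8 times as often, against at most 9.14 times on any autosome. In windows 500 bp to either side of the X summits it was found in 1 of 1242. Most X peaks that carried it were in the first tier. In the pooled list 12 X peaks of the first tier had the core in their window, then 3 of 601 in the second tier, 1 of 575 in the third and 0 of 530 in the fourth (exact 95% interval up to 0.694%).

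Read from the sites rather than from the peaks, X holds 81 copies of GCGCAGGG (4.57 per Mb) and the autosomes 233 (2.82 per Mb). Of the X copies, 24 lay wholly inside an optimal peak, which is 29.6% (19.99 to 40.8), although X peaks cover 1.37% of the chromosome. Of the autosomal copies 8 did (3.43%, 1.49 to 6.65), of which 6 were on chromosome III, none of them within 20 kb of tbx-2. The top list of replicate 1 covered 26 X copies and 8 autosomal ones, and that of replicate 2 covered 25 and 6. The 24 copies fell in 20 X peaks, 5 of which held at least 2 copies, with 1 copy shared by 2 overlapping peaks in Y41G9A.17, and 22 were within 100 bp of a summit. In several printed sequences a C stands directly before the core. Counted after this was seen, and so without a test, CGCGCAGGG occurred 33 times on X, with 17 copies inside peaks, and 44 times on the autosomes, with 0 inside peaks. Of the other 48 X copies 7 were inside peaks, as were 8 of the other 189 autosomal copies.

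**Figure D4:**
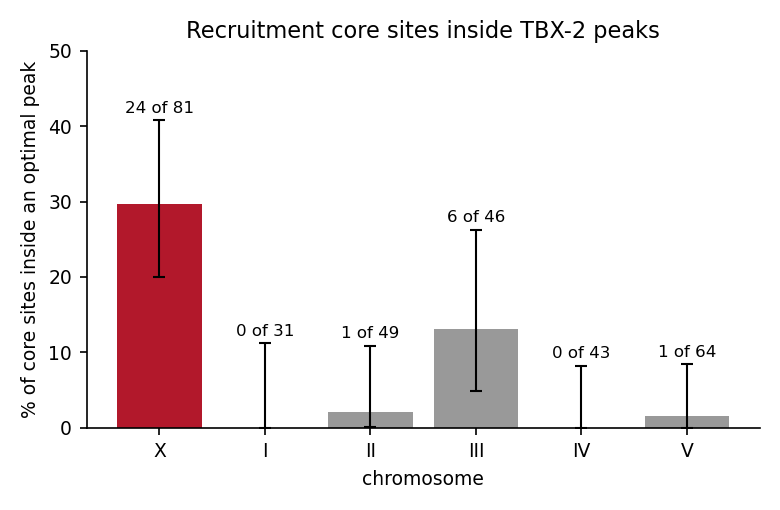
The percentage of GCGCAGGG copies that lie inside an optimal TBX-2 peak is shown for X (red) and autosomes I to V (grey), with exact 95% intervals and the counts above the bars. On X 24 of 81 copies were inside a peak, against 6 of 46 on chromosome III and at most 1 on any other autosome.

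Most peaks with the core at the summit were found by both replicates. Their signals ran from 82.6 to 364 with a median of 226, against 128 for all X peaks, and 11 of the 12 were in both top lists. Of the 12, 5 were among the 20 strongest X peaks, 6 lay over 2 kb from any 5′ end and 4 within 1 kb of one. The strongest, 3979 bp downstream of the 5′ end of W02H3.3 at chrX:11094013-11094366, had a signal of 364, with 210 in replicate 1 and 157 in replicate 2. Next came a peak in an intron of mom-1, at chrX:6296355-6296744, with 354, 200.8 and 153. The peak 749 bp upstream of nspc-17, at chrX:14525726-14526089, had 352, 202 and 151. Those near gtr-1 (chrX:806557-806863; 330, 189 and 142) and F20B6.9 (chrX:4209115-4209437; 329, 185 and 148) completed the 5. These 5 had between 185 and 210 in replicate 1 and between 142 and 157 in replicate 2. They are the core peaks among the 20 strongest by pooled signal, so similar values follow in part from this choice. Among peaks of that rank without the core, the one beside ets-5 had like values (200.8 and 155), while the one at puf-9 did not (163 and 182). The sixth lay 4866 bp upstream of xol-1, the switch gene of worm sex determination, at chrX:8036326-8036515. It had a signal of 273, with 130 in replicate 1 and 149 in replicate 2, and was the one core peak with a tRNA gene within 250 bp. It was also the one core peak with the higher value in replicate 2. The remaining 6 were weaker, with pooled signals from 82.6 to 179. Among them were a peak at the promoter of apm-3, the medium subunit of the AP-3 adaptor, with 106, and one 6247 bp downstream of the 5′ end of dpy-23, the medium subunit of the AP-2 adaptor, with 105. One of the 6 lies in the intron of Y41G9A.17 beside a stronger summit, whose replicate signals (188 and 135) are the ones it overlapped. It counts among the 11 by that overlap. The core at its own summit lay within the top-list peaks of replicate 2 and not within those of replicate 1.

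**Figure D5:**
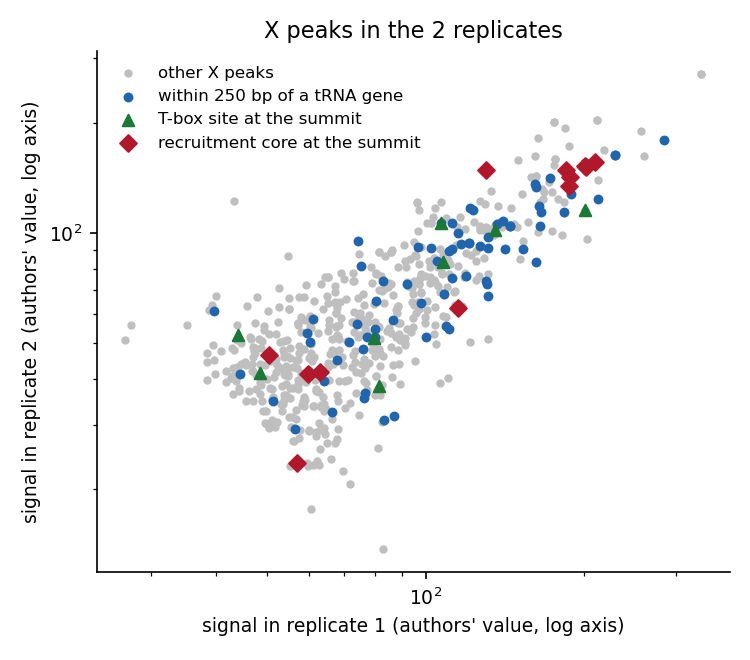
Each point is 1 of the 621 X peaks, placed by the signal of the strongest peak it overlapped in replicate 1 (horizontal, log axis) and replicate 2 (vertical, log axis). Peaks with the recruitment core (red) include strong and weak peaks, and peaks with a T-box site (green) are spread over the range.

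The T-box site itself was rare. It was in 1.29% of X windows (8 of 621) and 1.33% of autosomal windows (range 0.883% to 1.85%; adjusted p = 1, Fisher's exact test), and in 0.779% of all tiled X windows and 0.725% of the X flanks. The 8 peaks had signals from 86.0 to 316 with a median of 130. The strongest, 129 bp upstream of F16B12.6 at chrX:14102073-14102308, had 316 in the pooled list, 200.6 in replicate 1 and 115.9 in replicate 2, and its window holds a T-box site on each strand. The weakest lay in an intron of gap-2, which encodes a GTPase-activating protein of Ras, with 86.0. A GA repeat, GAGAGA, was in 31.6% of X windows and 30.8% of autosomal windows (range 26.98% to 34.0%; adjusted exact p = 0.963), against 4.91% of tiled X windows. The element CTGCGTCT was in 7.89% of X windows and 10.9% of autosomal ones (range 8.995% to 13.7%; adjusted exact p = 0.0505), and it is rarer on X, at 0.280% of tiled windows against 0.573%. The share was lower on X in the top lists of replicate 1 (6.64% against 9.50%, adjusted exact p = 0.0418) and replicate 2 (6.86% against 10.6%, adjusted exact p = 0.0103), but among the stronger 1526 optimal peaks the direction turned (11.7% against 10.3%, adjusted exact p = 0.562). The GC-box GGGCGG was in 5.48% of X windows and 8.41% of autosomal ones (adjusted exact p = 0.0346), below the autosomal range of 6.68% to 10.7%. It too is rarer on X, at 1.22% of tiled windows against 1.69%, and relative to those windows X summits held it 4.50 times as often, inside the autosomal range of 3.99 to 5.67. In windows reaching 25 bases to each side the call was lost (2.90% against 4.27%, adjusted exact p = 0.202). Windows at X summits were 51.1% G and C, above the 48.2% to 49.1% of the autosomes, while the whole chromosome was 35.2% on X and 34.6% to 36.2% on the autosomes.

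The strongest X peak lay 558 bp upstream of ftt-2, which encodes a 14-3-3 adaptor protein, at chrX:11605662-11606343. Its signals were 606 in the pooled list, 334 in replicate 1 and 271 in replicate 2, for ranks of 21, 26 and 19. The third strongest was 461 bp upstream of epn-1, the gene of the endocytic adaptor epsin, with 446, 257 and 191. Others of the 20 strongest lay 770 bp upstream of spc-1 (alpha-spectrin; 356, 187 and 173), 288 bp upstream of puf-9 (a Pumilio-family RNA-binding protein; 340, 163 and 182) and 792 bp upstream of sms-2 (a sphingomyelin synthase; 330, 176 and 153). One lay in an intron of ldb-1, the gene of the LIM-domain-binding cofactor, with 350, 212 and 140. All these peaks were in the top list of both replicates. Of the 20, 8 lay within 1 kb of a 5′ end and 8 over 2 kb from any, against 354 and 159 of all 621. The far ones included 3 with summits outside annotated genes, with no tRNA gene within 250 bp and no core. They were 5816 bp downstream of the 5′ end of C30E1.4 (chrX:16929507-16930157; 412), 6264 bp upstream of F13D11.3 (chrX:5811940-5812436; 380) and 6025 bp upstream of K02D3.1 (chrX:13700675-13701054; 377). The C30E1.4 interval also holds a weaker optimal summit, with a signal of 190, inside a gene annotated as ncRNA.

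Summits also gathered in runs. Counting summits less than 5 kb apart as one run, the 621 formed 476 runs, of which 370 were single summits and 29 held 3 or more. The longest, of 5 summits, spanned chrX:12172184-12183463 upstream of F57G12.1. Another summit within 2 kb was found for 18.8% of X summits and 23.5% of autosomal ones (adjusted p = 0.0346, Fisher's exact test), with X inside the autosomal range of 17.99% to 28.8%. The call was lost in the top list of each replicate alone, with 20.9% on X against 23.9% in replicate 1 (adjusted exact p = 0.1504) and 22.8% against 25.3% in replicate 2 (adjusted exact p = 0.304). Up to 4 summits lay in or within 5 kb of 1 gene. Among the genes with 4 were abl-1, the Abl tyrosine kinase, kin-20, a casein kinase 1 of the heterochronic pathway, and lin-14, the nuclear protein that sets early larval fates, each with 3 inside the gene. F46H5.3 also had 3 inside, and act-4, an actin gene, had 2, as did ajm-1 and sma-9.

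A gene was called bound when a summit lay within 1 kb of any of its 5′ ends. By this rule 357 of 2731 X protein-coding genes were bound (13.1%, 11.8 to 14.4) and 11.2% of autosomal genes, and over all nuclear genes 11.5% were. The difference had an adjusted p of 0.0172 (Fisher's exact test), with X inside the autosomal range of 6.43% to 16.2%. It did not pass the test with summits within 500 bp (adjusted exact p = 0.1105) or among the stronger 1526 peaks (adjusted exact p = 0.287). The gene lists below are read against the 13.1% of X genes and carry no test.

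Of the 6 X-linked genes of sex determination and dosage compensation 4 were bound, against 2 of 19 autosomal ones. The bound ones included the X-signal elements ceh-39, sex-1 and fox-1, which report the number of X chromosomes, and sdc-1, a zinc-finger protein that acts with the dosage compensation complex. The peak at ceh-39, 225 bp upstream, had a signal of 155, with 83.4 in replicate 1 and 70.5 in replicate 2. Those at sdc-1 (111, 49.2 and 54.5), sex-1 (106, 65.3 and 43.2) and fox-1 (82.3, 59.4 and 23.6) were below the X median. The fox-1 peak was outside the top list of replicate 2 and the sdc-1 peak outside that of replicate 1. The 2 others, xol-1 and sdc-2, had no summit within 1 kb. In the top list of replicate 1, but not in that of replicate 2 or in the optimal set, sdc-2 had a summit within 1 kb. The nearest optimal summit to xol-1 was the core peak 4866 bp upstream, and the nearest to sdc-2, which brings the complex to X, was 24073 bp away.

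Nuclear hormone receptor genes, ligand-regulated transcription factors whose family is much expanded in worms, were bound in 9 of 27 cases on X and 13 of 247 on the autosomes. The top list of each replicate alone also bound 9 on X. The strongest were nhr-48 (308, 172 and 138), nhr-1 (248, 140 and 104), nhr-255 (231, 142 and 90.7) and nhr-32 (164, 74.7 and 87.7), all with summits 308 to 602 bp upstream. The nhr-255 summit was also within 250 bp of a tRNA gene. Of homeodomain genes on X 2 of 27 were bound, ceh-39 and ceh-40, against 10 of 69 on the autosomes. None of the 4 X-linked GATA and endoderm genes, the 33 chemoreceptor genes and the 32 neuropeptide genes was bound, and with so few genes a share of up to 9.09% of chemoreceptors and 9.38% of neuropeptide genes is allowed. In the top list of replicate 2 alone 1 chemoreceptor gene, srd-44, was bound.

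Heterochronic genes, which time larval development, were bound in 4 of 7 X cases and 6 of 14 autosomal ones. These were ain-1, a GW182 protein of the microRNA machinery (298, 162 and 143), kin-20 (156, 82.9 and 73.9), the Argonaute alg-1 (142, 74.3 and 66.7) and lin-14 (93.9, 58.8 and 35.7). Muscle structure genes were bound in 6 of 16 X cases and 13 of 39 autosomal ones, with act-4 (141, 83.3 and 64.5), the troponin T gene tnt-2 (117, 57.9 and 59.0), mlc-2, for a myosin light chain (112, 68.0 and 52.3) and dim-1, an immunoglobulin-domain protein of body muscle (98.3, 82.9 and 13.8), as the strongest. The dim-1 peak ranked 1205 in replicate 1 and 17278 in replicate 2. The top list of replicate 1 bound 5 of the 16 muscle genes on X, and that of replicate 2 bound 4. Of the 7 X genes of the pharynx list 3 were bound, against 5 of 20 on the autosomes: the innexin inx-3 (148, 72.9 and 77.8), the DNA-binding protein peb-1 (130, 79.5 and 49.9) and the adaptor sem-5 (116, 78.0 and 44.1). All 3 were bound in the top list of each replicate, and their summits lay 357 to 489 bp upstream.

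In the signalling lists, FGF, EGF and Ras genes were bound in 4 of 10 X cases and 7 of 25 autosomal ones, led by the FGF ligand egl-17 (244, 154 and 90.8), whose summit lay 167 bp downstream of its 5′ end, then eor-2 and sem-5 (116 each) and gap-2 (82.1). The egl-17 summit was also within 250 bp of a tRNA gene. TGF-beta and Notch genes were bound in 4 of 7 X cases and 7 of 32 autosomal ones. They were the ADAM protease adm-4 (227, 127 and 102), the co-SMAD daf-3 (114, 57.1 and 57.0), the presenilin sel-12 (99.3, 53.8 and 50.7) and the Schnurri homologue sma-9 (95.6, 46.9 and 46.0). Upstream of sma-9 a second, stronger summit lay 2972 bp away, with a signal of 303. Wnt genes were bound in 2 of 4 X cases and 8 of 27 autosomal ones, by the lev-9 and mom-1 peak and by one at the planar polarity gene vang-1 (179, 104 and 74.6). Basement membrane and adhesion genes were bound in 3 of 11 X cases and 5 of 27 autosomal ones: the junction scaffolds dlg-1 (160, 104 and 56.1) and ajm-1 (91.7, 39.6 and 45.2) and the syndecan sdn-1 (100.8, 62.7 and 36.9). Synapse and axon genes were bound in 2 of 16 X cases and 13 of 40 autosomal ones, with unc-115, an actin-binding protein of growth cones (286, 165 and 121), and syd-2, the liprin that organizes presynaptic sites (282, 153 and 128). In the top list of replicate 2 alone 4 of the 16 were bound, with unc-1 and unc-7 besides these. Chromatin genes of the synMuv list were bound in 2 of 5 X cases and 19 of 35 autosomal ones, at utx-1, a histone H3 demethylase (117, 62.3 and 53.5), and lin-15B (82.7, 38.4 and 44.5). Among ribosomal protein genes 1 of the 2 on X, rpl-11.2 (230, 116 and 111), was bound, against 55 of 77 on the autosomes, and of cuticle collagens 1 of 30, col-185 (165, 109 and 55.7), against 5 of 143. The col-185 summit lay inside an annotated tRNA gene. In each of these groups of 3 values the first is the pooled signal, followed by replicate 1 and replicate 2, and a replicate value is that of the strongest peak overlapped. Besides sdc-1 and fox-1, some named genes were bound in the top list of only 1 replicate. For sma-9, ajm-1 and lin-15B it was replicate 2, and for gap-2, lin-14, ceh-40 and dim-1 replicate 1.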

How the data were processed

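Binding of GFP-tagged TBX-2 was measured by chromatin immunoprecipitation and sequencing (ChIP-seq) in 2 biological replicates of late embryos of 1 strain. The authors called peaks against a control library, on each replicate and on the pooled reads, per the labels' accompanying file lists. Which aligner and peak caller they used, with which threshold, is not given in the sources used here. The depth of each library is unknown. The deposited lists give a signal per peak, which is the authors' own value, and the −log10 of a q-value, which was 2.976 in every X peak of the optimal set and was not used. Lists on ce11 were analysed, with ce10 as an alternative, and no X peak ran past the end of the chromosome in WBcel235. All 621 X rows were kept, including 5 that repeat an interval with another summit.

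Each summit was set against the Ensembl 115 annotation of WBcel235, with Python 3.11.15 and scipy 1.17.1. Context classes were assigned in the order promoter, 5′ untranslated region, coding sequence, 3′ untranslated region, intron, non-coding gene, other. The share of X summits with each property was compared with that of autosomal summits by a two-sided Fisher's exact test, adjusted by Benjamini-Hochberg over 21 shares, with exact (Clopper-Pearson) 95% intervals. Background shares came from all bases, or from all windows of the same size tiled along each chromosome. Motifs were sought on both strands, up to 50 bases to each side of a summit. Replicates alone were represented by their 3053 strongest peaks, as many as the optimal set holds.

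The peaks and the 17 gene lists were chosen with earlier results of these data known, so lists have counts and no test. Of 469 symbols 3 were not found in the annotation. The genes named are those nearest to the 20 strongest X peaks and to the 5 strongest far from a 5′ end, at most 4 bound members of each list, those with the highest signal, all X genes of the sex determination list and 5 of the genes tied for the most summits, ordered by summits inside the gene and then by name. T13C5.6 and serp-1.1 also belong to the 20, with signals of 423 and 374. Peaks at divergent promoters, the remaining core peaks, the genes around named peaks and F57G12.1 were named after their values were seen. The steps were tested on simulated summits.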

Additional observations from a re-analysis of the deposited data

How the results depend on the processing

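Of 134 alternative results, 92 kept direction and call, and in 12 the direction turned. Of the 11 shares past the threshold, 5 did so in every alternative tried for them, with the X share of summits outside the autosomal range throughout. They were the non-coding class, for which the order of classes was not varied, divergent promoters, the central region, tRNA genes and the recruitment core. Relative to bases, X summits near tRNA genes were inside the autosomal range (15.4-fold, against 12.6-fold to 25.2-fold). The non-coding and tRNA shares overlap, since tRNA genes count in both. The other calls rest on settings. The stronger peaks are the 1526 with the highest signal, and values here are odds ratios of X to autosomes. The share within 1 kb of a 5′ end was not called at 2 kb (0.818) or with 1 5′ end per gene (0.822), and its direction turned when 5′ ends of all genes counted (1.11). Promoters became called among the stronger peaks (0.722), with 1 row per interval (0.813) and without summits near tbx-2 (0.808). Introns were lost among the stronger peaks (0.714) and without the tbx-2 region (0.766), and class other without that region (1.27). Summits over 2 kb away became called among the stronger peaks (1.42). Neighbouring summits were lost with either replicate left out, among the stronger peaks (0.729), without the tbx-2 region (0.781), at 1 kb (0.805) and at 5 kb (0.947). The CTGCGTCT element became called with either replicate left out, with 1 row per interval (0.693) and in windows reaching 100 bases to each side (0.625), while among the stronger peaks its direction turned (1.15). The GC-box was lost in narrower windows (0.669), and genes bound among the stronger peaks (1.11) and at 500 bp (1.14). Among shares not called in either setting, the direction turned for signal above the median among the stronger peaks (0.91), for peaks in both top lists without the tbx-2 region (1.002) and with at least 50% of the peak covered (1.007), and for the T-box site among the stronger peaks (1.51) and without the tbx-2 region (1.063). The cause of each was not tested, beyond the smaller number of stronger peaks.

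With 1 replicate left out, the odds ratio ran from 0.744 to 0.861 for promoters, which were called without replicate 1 only, and from 1.25 to 1.39 for summits over 2 kb away, likewise called without replicate 1 only. It ran from 0.841 to 0.873 for neighbouring summits, from 0.624 to 0.677 for CTGCGTCT, from 0.513 to 1.22 for coding sequence, from 1.03 to 1.20 for the T-box site and from 0.985 to 0.999 for the GA repeat; the last 3 turned direction in at least 1 of these and were never called. The X share was 20.7% to 20.9% with 1 replicate left out and 20.97% among the stronger peaks. The densest bin over the median bin was 1.30 to 1.31 with 1 replicate left out and 1.47 in bins of 500 kb. Without replicate 1, or among the stronger peaks, no autosomal window had the core, and with 3 counts in place of 0 the odds ratio was 17.0 and 8.99. These values leave out the counting error of the X windows. No paired analysis was possible because there was 1 group only. Depth per library is unknown, so no limit of detection can be given for weak X peaks.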
